A study of Mus musculus with 4 samples.

Results

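The genes described here are 9 ligands, SMAD proteins, corepressors and targets of the transforming growth factor beta (TGF-beta) pathway in ST2 cells, a fibroblast-like stromal line established from the bone marrow of BALB/c mice. They were taken by gene symbol, namely Tgfb1, Tgfb2, Tgfb3, Smad3, Ski, Skil, Tgif1, Tgfbi and Tgfb1i1, and had 20 of the 45101 probe sets and made up 9 of 18193 genes on the array. Affymetrix Mouse Genome 430 2.0 arrays were hybridised with total RNA of 4 groups, 1 array each. The groups were control cells and cells exposed to LIPUS (low-intensity pulsed ultrasound, which acts on cells mechanically and is used in fracture care) and then cultured for 0.5, 1 or 3 h. The exposure lasted 20 min at 25 mW per square cm. All cells grew at 37 °C and 5% CO2 in RPMI 1640 medium with 10% serum, which itself carries growth factors. The labels do not say whether control cells went through a sham exposure or when they were harvested.

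TGF-beta ligands are secreted in a latent form bound to the matrix and, once released, bring together a pair of receptor kinases that phosphorylate SMAD2 and SMAD3. These SMADs join SMAD4 in the nucleus and switch target genes on or off, while the corepressors SKI, SKIL (SnoN) and TGIF1 hold the same genes down. In bone marrow stroma and bone the pathway is known for its control of matrix production and of the recruitment and differentiation of osteoblast precursors.

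With 1 array per group there is no replicate error, no test and no p-value, and precision is limited by the number of arrays. Values are the authors' log2 signals, and a gene is represented by the probe set with the highest mean signal. Values under a floor, the median of all values at log2 5.23, were raised to it, and a gene was counted as measured in a comparison where at least 1 of the 2 arrays lay above the floor. As a technical error, the log2 ratios of the 2 brightest probe sets of a gene were compared over 5004 genes, which gave an SD of 0.106, 0.156 and 0.136 at 0.5, 1 and 3 h. That spread leaves out differences between cultures. "Rose" and "fell" are used below only for a log2 difference of at least 0.32, a signal 25% higher or 20% lower, which is more than 2 such SDs at each time. All 10 stromal marker genes lay above the floor on every array, and 5 of 6 haematopoietic, 4 of 5 endothelial and 3 of 5 epithelial markers lay under it on all 4 arrays, Ptprc, Pecam1 and Cdh1 among them. Among the stromal markers Kitl, the stem cell factor gene, was highest with a log2 ratio of 0.61 at 3 h, and Csf1, the macrophage colony-stimulating factor gene, lowest at −0.33 at 3 h. The markers of other cell types above the floor, Cd3e, Kdr, Epcam and Krt8, had log2 ratios between −0.18 and 0.20. Some signs of RNA preparation moved with the LIPUS arrays. Relative to control, the 24 probe sets of the bacterial poly-A spike transcripts differed by a median of −0.05, 0.29 and 0.39 (log2) at 0.5, 1 and 3 h, and the 3 for 18S ribosomal RNA by 0.96, 1.91 and 1.79. The 5′ minus 3′ signal of Gapdh differed from control by −0.06, −0.16 and −0.16. Their part in the results below was not tested.

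Of the 9 genes, 8 lay above the floor on all 4 arrays and 1, Tgfbi, lay under it on all 4. None of the 8 measured genes rose or fell at 0.5 h, where 1.37% of 11574 genes were higher and 1.29% lower by the same rule. At 1 h, 2 of 8 fell, Tgfb1i1 and Tgfb1, where 4.25% of 11497 genes were lower, and 0 of 8 rose, where 5.32% were higher. At 3 h, 2 of 8 fell, Skil and Tgfb1i1, where 2.93% of 11574 genes were lower, and 0 of 8 rose, where 3.26% were higher. The 8 genes are all bright, above log2 8 on every array, and among the 5919 genes that bright 2.94% were lower at 1 h and 2.37% at 3 h. By a 1.5-fold rule 1 of 8 was lower at 1 h, Tgfb1i1, where 0.331% of measured genes were lower, and 0 of 8 at 0.5 h and 3 h, where 0.104% and 0.181% were. None of the 8 was higher by 1.5-fold, beside 0.372%, 0.948% and 0.346% of measured genes at 0.5, 1 and 3 h. At 2-fold none of the 8 was past the rule, beside 0.138%, 0.191% and 0.0691% of genes higher and 0.0% lower at the 3 times. The median log2 ratio of the 8 genes was −0.08, −0.08 and −0.04 at 0.5, 1 and 3 h, beside 0.01, 0.02 and 0.01 for all measured genes. The 3 comparisons share the control array, so agreement between them is not independent.

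**Figure D1:**
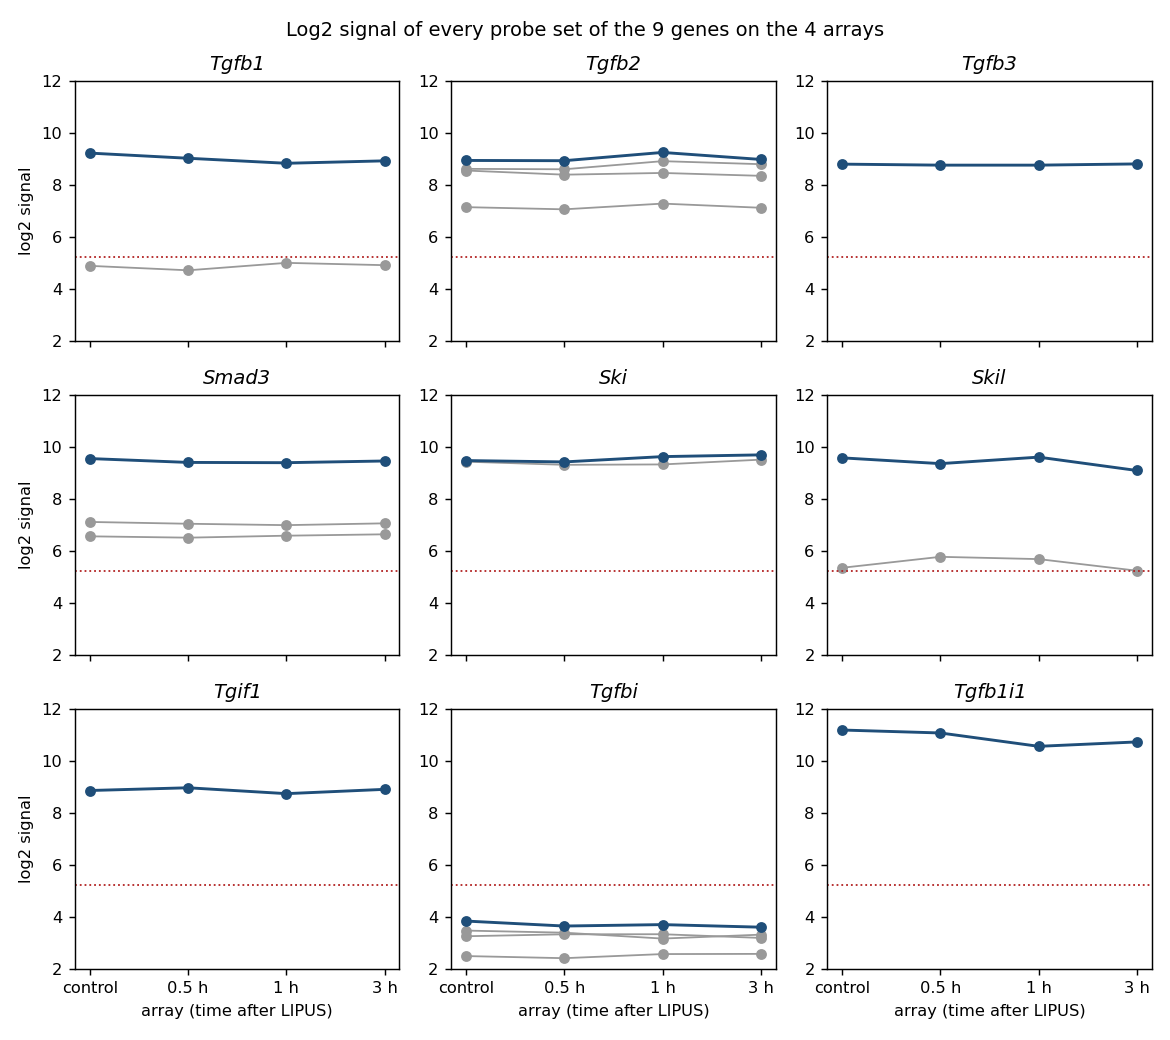
Log2 signal (vertical axis) of every probe set of the 9 genes on the control array and on the arrays at 0.5, 1 and 3 h after LIPUS. The blue line is the brightest probe set of a gene, grey lines are its other probe sets, and the dotted line is the floor at log2 5.23. Tgfbi lies under the floor throughout, and the lines of the other genes stay within 0.63 of their control value.

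The 3 ligand genes encode closely related secreted dimers, of which TGF-beta 1 is the form most abundant in bone matrix, and they did not move together. Tgfb1 (probe set 1420653_at) had log2 signals of 9.22 in control cells and 9.03, 8.83 and 8.93 at 0.5, 1 and 3 h. The control array was the highest and the 1 h array the lowest. Tgfb1 fell by 0.39 on the log2 scale at 1 h, so that its signal was 23.8% lower than in control cells. At 0.5 h and 3 h its log2 ratios were −0.20 and −0.30, short of the rule. At 1 h, 2.14% of measured genes had a lower ratio than Tgfb1. Its other probe set lay under the floor on every array, so the value rests on a single probe set. In RNA from whole cultures, fewer cells with a transcript and less of it per cell cannot be told apart.

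Tgfb2 (probe set 1450922_a_at) had log2 signals of 8.94 in control cells and 8.93, 9.25 and 8.98 at 0.5, 1 and 3 h. The 1 h array stood above the other 3, which lay within 0.05 of each other. Its log2 ratio of 0.31 at 1 h was just short of the rule and higher than that of 94.1% of measured genes. A second probe set gave nearly the same course, with log2 ratios of −0.02, 0.30 and 0.18. The remaining pair of measured Tgfb2 probe sets had log2 ratios at 1 h of 0.14 and −0.09, so the 4 probe sets disagreed in size and 1 in sign. Tgfb3 (probe set 1417455_at) was the steadiest of the 9 genes: its log2 signals were 8.80 in control cells and 8.76, 8.76 and 8.81 at 0.5, 1 and 3 h, a range of 0.05 over the 4 arrays.

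The promoters of Tgfb1 and Tgfb2 are shown because the log2 ratios of these ligand genes had opposite signs at 1 h by their brightest probe sets. Both sequences come from RefSeq on the GRCm38.p6 build and run from 250 bases before to 50 bases after a transcript start, and matches to 5 searched motifs are in capitals. Tgfb1 lies at chr7:25686752-25687051 on the plus strand and Tgfb2 at chr1:186705940-186706239 on the minus strand. The Tgfb2 window lies inside the annotated gene, which spans 186622787 to 186709697, so its transcript start is not the outermost one. The Tgfb1 window spans the outer end of its gene.
Tgfb1: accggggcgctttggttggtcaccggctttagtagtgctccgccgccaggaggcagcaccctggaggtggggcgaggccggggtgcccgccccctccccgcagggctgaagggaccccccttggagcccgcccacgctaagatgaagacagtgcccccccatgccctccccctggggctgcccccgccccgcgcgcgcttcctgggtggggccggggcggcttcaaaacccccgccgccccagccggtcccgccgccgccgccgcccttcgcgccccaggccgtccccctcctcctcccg
Tgfb2: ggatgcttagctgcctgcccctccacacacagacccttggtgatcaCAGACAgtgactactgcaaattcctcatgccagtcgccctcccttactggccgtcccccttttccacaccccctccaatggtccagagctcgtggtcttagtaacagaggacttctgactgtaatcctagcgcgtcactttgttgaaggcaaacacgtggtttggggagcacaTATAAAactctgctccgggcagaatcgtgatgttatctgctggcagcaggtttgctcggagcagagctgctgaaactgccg
The Tgfb1 window had 77.0% G and C and no match. The Tgfb2 window had 54.3% G and C, with a match to CAGACA, a box bound by SMAD proteins, 204 bases before the start and a match to TATAAA, the TATA box, 31 bases before it. On both strands, CAGACA occurs in 21.0% of 32851 promoters of this length and TATAAA in 13.6%. The other motifs were GTCTAGAC, a palindromic SMAD element found in 0.213% of promoters, TGACTCA, the AP-1 site, in 5.20%, and GAANNTTC, part of a heat shock element, in 7.86%. The letters TATAAA were added after the promoters were seen. A match describes the letters in this window only. The table held promoters for 6 of the 9 genes. CAGACA also occurred in windows of Tgif1, and the windows of Smad3, Ski and Tgfbi held no match.

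Smad3, whose product carries the signal from the receptors to DNA, changed little. Its brightest probe set (1454960_at) had log2 signals of 9.56 in control cells and 9.41, 9.40 and 9.46 at 0.5, 1 and 3 h. The control array was the highest of the 4, and the log2 ratios were −0.15, −0.16 and −0.09. A second probe set had ratios of −0.07, −0.12 and −0.05 and the third −0.05, 0.02 and 0.08, so the sign at 1 h and 3 h depended on the probe set. All 9 of these ratios lay within 2 SDs between probe sets.

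Among the corepressors, Skil had the largest difference. SKIL binds SMAD proteins at target genes, is degraded when the pathway is active, and its own gene is a known target of the pathway. The brightest probe set of Skil (1452214_at) had log2 signals of 9.58 in control cells and 9.36, 9.61 and 9.10 at 0.5, 1 and 3 h. The 3 h array was the lowest, and the control and 1 h arrays lay within 0.03 of each other. Skil fell by 0.49 on the log2 scale at 3 h, a signal 28.6% lower than in control cells, and 0.484% of measured genes had a lower ratio. At 0.5 h and 1 h its log2 ratios were −0.22 and 0.03.

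The other probe set of Skil was dim, with log2 signals of 5.35 in control cells and 5.77, 5.68 and 5.24 at 0.5, 1 and 3 h, close to the floor. Its log2 ratios of 0.42, 0.33 and −0.11 went against the brightest probe set at 0.5 h, and the mean over both was −0.30 at 3 h, short of the rule. The step between the last 2 times, which does not use the control array, was lower by both: from the 1 h to the 3 h array the log2 difference was −0.51 for the bright probe set and −0.45 for the dim one. In that step 1 of 8 genes fell, where 2.36% of 11494 genes were lower, and 0 of 8 rose, where 1.74% were higher.

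Ski and Tgif1 showed smaller differences. Ski, the paralogue of Skil, had log2 signals of 9.48 in control cells and 9.43, 9.63 and 9.70 at 0.5, 1 and 3 h by its brightest probe set (1426373_at). Its log2 ratios were −0.05, 0.15 and 0.22, and the other probe set gave −0.12, −0.11 and 0.08, with the 3 h array highest in both. Tgif1, a homeodomain corepressor, had log2 signals of 8.87 in control cells and 8.97, 8.75 and 8.91 at 0.5, 1 and 3 h on its single probe set (1422286_a_at). Its log2 ratios of 0.11, −0.12 and 0.04 lay on both sides of 0. At 3 h the 3 corepressor genes had log2 ratios of −0.49 for Skil, 0.22 for Ski and 0.04 for Tgif1.

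Tgfb1i1 differed most of the 9 genes. It encodes HIC-5, a LIM-domain protein of focal adhesions related to paxillin, which also acts as a cofactor of nuclear receptors and was isolated as a gene induced by TGF-beta and by hydrogen peroxide. Its single probe set (1418136_at) had log2 signals of 11.20 in control cells and 11.08, 10.57 and 10.74 at 0.5, 1 and 3 h. The 1 h and 3 h arrays were both lower than the control and 0.5 h arrays. Tgfb1i1 fell by 0.63 on the log2 scale at 1 h and by 0.46 at 3 h, signals 35.3% and 27.2% lower than in control cells, and its ratio at 0.5 h was −0.11. At 1 h 0.226% of measured genes had a lower ratio, and at 3 h 0.743%. From the 0.5 h to the 1 h array, without the control, its log2 difference was −0.51. In that step 1 of 8 genes fell, where 2.09% of 11507 genes were lower, and 0 of 8 rose, where 3.31% were higher. No second probe set was on the array to compare with.

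Tgfbi encodes a secreted matrix protein that many cell types make in answer to TGF-beta. Its 4 probe sets stayed under the floor throughout, the brightest (1448123_s_at) with log2 signals of 3.84 in control cells and 3.65, 3.70 and 3.60 at 0.5, 1 and 3 h. No ratio was computed for it.

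**Figure D2:**
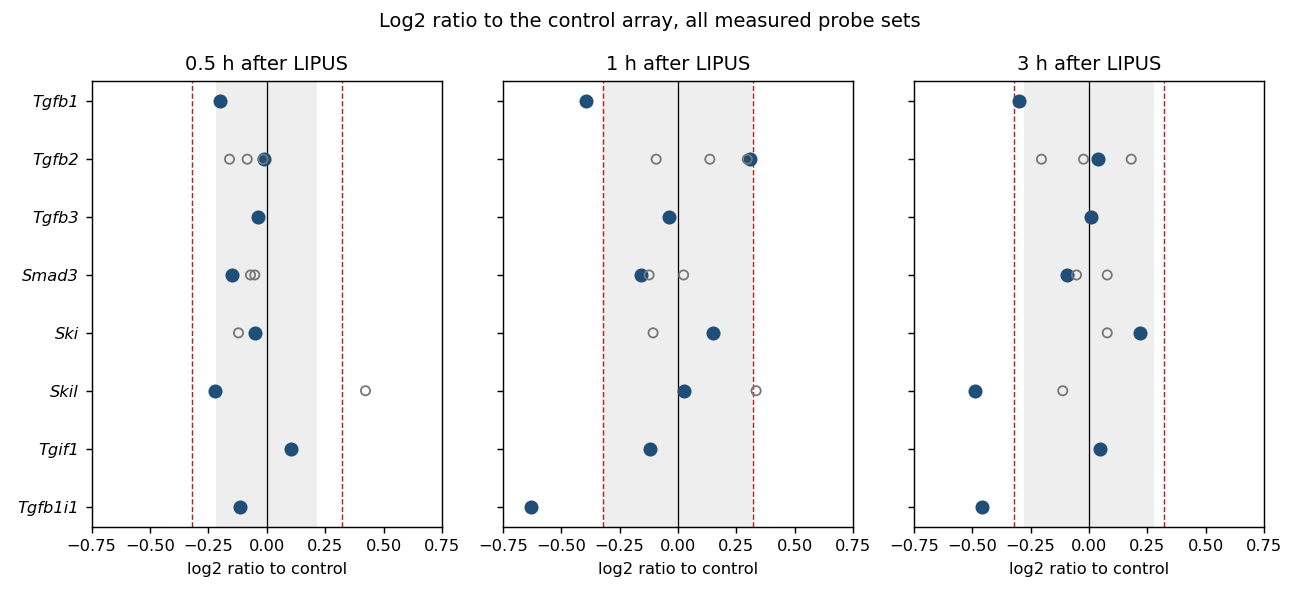
Log2 ratio of each LIPUS array to the control array (horizontal axis) for the 15 measured probe sets of 8 genes, by time. Filled points are the brightest probe set of each gene, open points its other probe sets, the grey band is 2 SDs between probe sets of one gene, and dashed lines are the 0.32 rule. Tgfb1 and Tgfb1i1 lie left of the rule at 1 h, and Skil and Tgfb1i1 at 3 h.

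The measured probe sets allow a limited check of these values. Of the 8 genes, 4 had a single measured probe set, among them Tgfb1 and Tgfb1i1, and 4 had 2 or more. Of those 4, the probe sets differed in sign for 1 gene at 0.5 h, for 3 genes at 1 h and for 2 genes at 3 h. By the brightest probe sets, the ratio of Tgfb1i1 at 1 h was larger than 2 SDs between probe sets, 0.31, and so were those of Tgfb1 at 1 h, Skil and Tgfb1i1 at 3 h (0.27) and Skil at 0.5 h (0.21). Tgfb1 at 3 h, at −0.30, was past its 0.27 but not past the 0.32 rule. Over the 2047 genes with both probe sets above log2 8, 2 SDs were narrower, 0.16, 0.25 and 0.22 at 0.5, 1 and 3 h. By these, Tgfb1 at 0.5 h (−0.20), Tgfb2 at 1 h (0.31) and, only just, Ski at 3 h (0.22) were also past 2 SDs. None of these additional ratios reached the 0.32 rule.

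**Figure D3:**
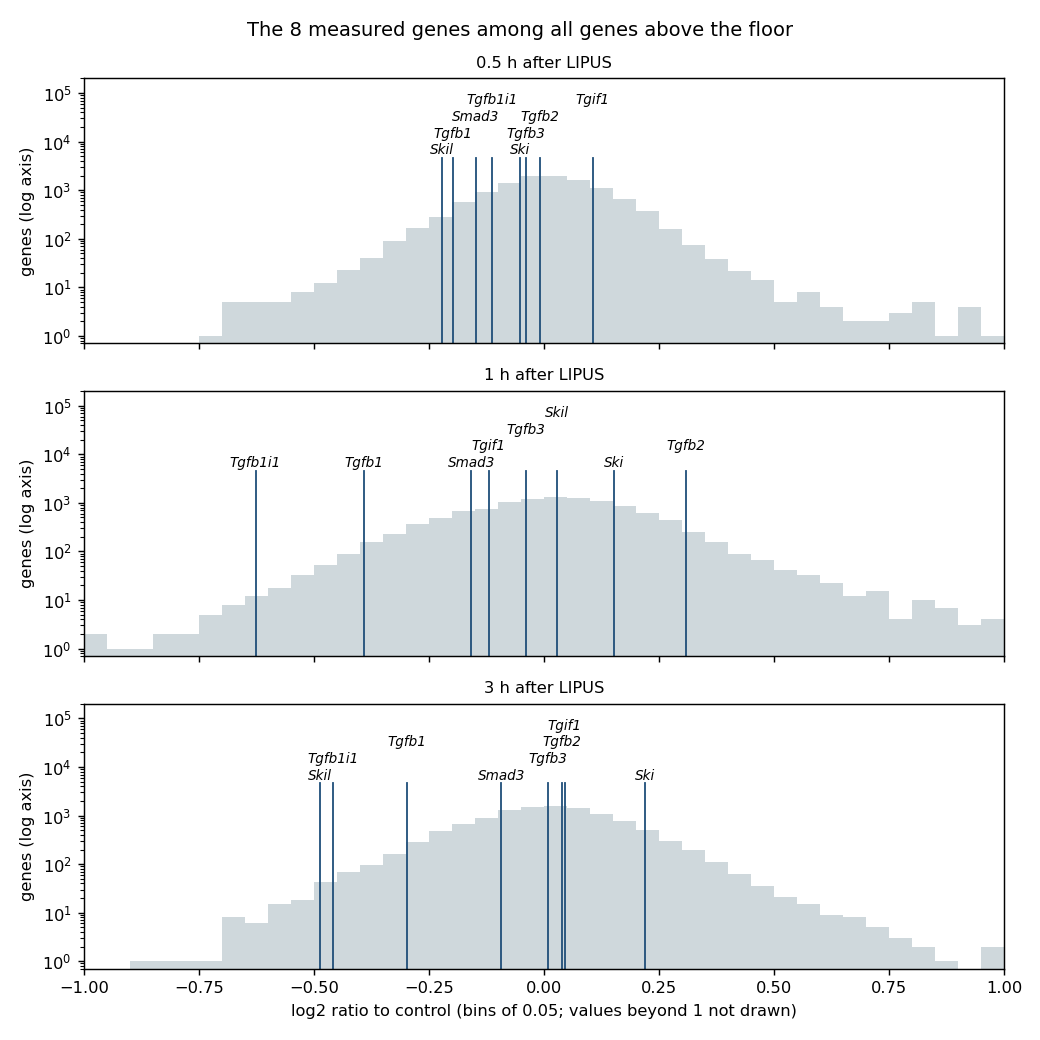
Number of genes (vertical, log axis) by log2 ratio to control (horizontal axis, bins of 0.05) for all genes above the floor, one panel per time, with the 8 measured genes as vertical lines. Tgfb1i1 at 1 h, at −0.63, and Skil at 3 h, at −0.49, lie in the left tail, and most of the other lines lie in the body of the distribution.

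The genes whose 3 log2 ratios lay nearest to those of the pair with the largest differences were sought among 11014 genes above the floor on all arrays, by Euclidean distance. Nearest to Tgfb1i1 were Tmem43, Syk, Cenpb, Bub1b and Ecm1, at distances of 0.04 to 0.12 on the log2 scale. Tmem43, the closest, encodes a membrane protein of the nuclear envelope and had ratios of −0.10, −0.62 and −0.42, against −0.11, −0.63 and −0.46 for Tgfb1i1. Nearest to Skil were Xylb, Hbegf, Tlr3, Creb5 and Tubb3, at distances of 0.06 to 0.11. Hbegf, which encodes a ligand of the EGF receptor, had ratios of −0.21, −0.04 and −0.45, against −0.22, 0.03 and −0.49 for Skil. With 3 ratios that share a control array, such likeness is a description only.

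The other genes of the pathway were taken from lists by role, each by its brightest probe set. Dimmer probe sets of some of these genes went past the rule where the brightest did not. Their counts stand beside 1.37%, 5.32% and 3.26% of all measured genes higher and 1.29%, 4.25% and 2.93% lower at 0.5, 1 and 3 h, and their medians beside 0.01, 0.02 and 0.01. Of 9 genes for TGF-beta and activin receptors, 7 were measured and none rose or fell at any time, with medians of −0.02, 0.07 and 0.16 at 0.5, 1 and 3 h. Tgfbr1, the type I receptor gene, was highest at 0.30 at 1 h, and Acvr1b, an activin receptor gene, lowest at −0.29 at 0.5 h. A second, dimmer probe set of Acvr1b had the opposite sign at 0.5 h, at 0.17. Of 13 measured genes for latency and activation, 1 fell, at 3 h. This was Ltbp2, of the family of latent TGF-beta binding proteins, at −0.33, and the highest ratio was 0.13 for the protease gene Bmp1 at 0.5 h. Ltbp2 was dim, with log2 signals of 6.14 in control cells and 5.81 at 3 h. Of the other ligands of the same SMADs and their antagonists, 1 of 8 fell at 0.5 h, Gdf11 at −0.43, and 1 of 7 at 1 h, Lefty1 at −0.58. Gdf11 was named after its values were seen. Both genes were dim and had a single probe set. Gdf11 had log2 signals of 5.91 in control cells and 5.48 at 0.5 h, close to the floor, and Lefty1 6.59 in control cells and 6.01 at 1 h. Fst, which encodes the activin antagonist follistatin, was the highest of this list at 0.26 at 1 h.

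By their brightest probe sets, the other SMAD genes all had ratios above 0 at 1 h, 7 of 7, where 6284 of 11497 measured genes did. Not all of their dimmer probe sets were above 0 at 1 h, and the lowest was at −0.12. The member Smad3 was at −0.16. The median of the list was 0.26 beside 0.02 for all genes, and 1 of 7 rose. This was Smad7, the inhibitory SMAD that acts as feedback on the receptors and is a known target of the pathway. Smad7 had log2 signals of 9.44 in control cells and 9.38, 9.93 and 9.22 at 0.5, 1 and 3 h. Its 1 h array was the highest, with a log2 ratio of 0.49, and its second probe set was higher still, at 0.80. From 1 h to 3 h, Smad7 was lower by 0.71 on the log2 scale, in the same step in which Skil was lower by 0.51. Of 5 measured partners of the corepressors none rose or fell by the brightest probe set. Mecom was highest at 0.19 at 3 h and Sin3a lowest at −0.24 at 1 h. The dimmer probe sets of Sin3a were at −0.16 and −0.50 at 1 h, the latter past the rule. Of 10 ubiquitin ligases, phosphatases and membrane regulators, 1 fell at 3 h. This was Pmepa1, which encodes a membrane protein that withholds SMADs from the receptors, with ratios at 3 h of −0.19, −0.36 and −0.48 over its 3 probe sets. Smurf2, a ubiquitin ligase gene of the pathway, was the highest of that list at 0.27 at 1 h.

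Among 26 measured target genes of TGF-beta, 1 rose at 0.5 h, 5 rose at 1 h and 3 rose at 3 h, while 0 fell at any time. Of all measured genes, 1.37%, 5.32% and 3.26% were higher and 1.29%, 4.25% and 2.93% lower at these times. The list's medians were −0.01, 0.09 and 0.03, beside 0.01, 0.02 and 0.01 for all measured genes. At 1 h Klf10, a zinc finger factor also called TIEG, was at 1.03, Snai1, a repressor of epithelial genes, at 1.00, Junb at 0.88 and Edn1, the endothelin gene, at 0.79. The course of Klf10 was narrow in time, with log2 signals of 9.39 in control cells and 9.47, 10.42 and 9.60 at 0.5, 1 and 3 h. Edn1 was instead highest at 0.5 h, at 1.41. The fifth gene at 1 h was Postn, which encodes the matrix protein periostin, at 0.55 and then 0.58 at 3 h, named after its values were seen. The lowest ratio of the list was −0.24, for Klf11 at 0.5 h. Several of these early genes are also known to answer to many stimuli other than TGF-beta.

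**Figure D4:**
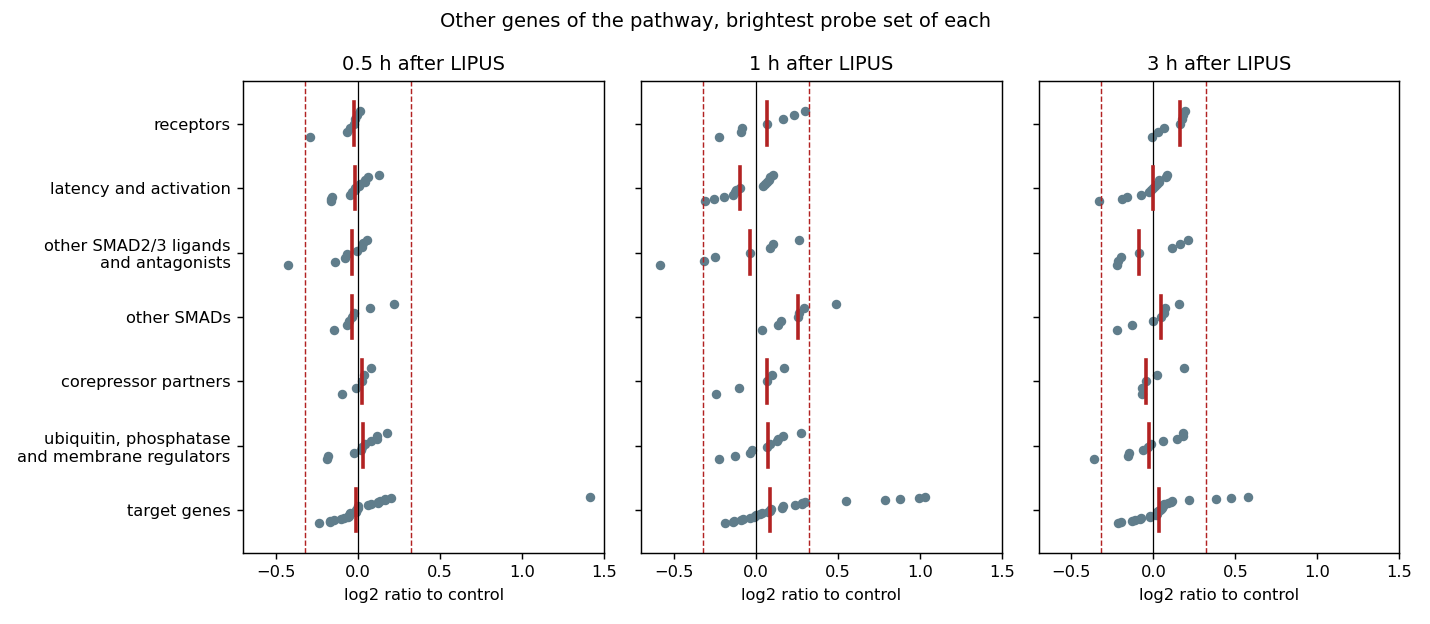
Log2 ratio to control (horizontal axis) of the measured genes of 7 pathway lists (rows), one panel per time. Each point is a gene, red bars are list medians, and dashed lines are the 0.32 rule. The target genes reach 1.41 at 0.5 h and 1.03 at 1 h, while all receptors stay inside the rule.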

How the data were processed

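The deposited table holds a signal for each probe set on each of 4 arrays, taken as log2 from the range of the deposited values. Per the labels, 500 ng of RNA was labelled with a kit that primes from the 3′ end. The authors' probe summary and array scaling are not given in the sources used here. Detection calls were not used. Of 45101 probe sets, 64 were array controls, 34945 had 1 gene symbol, 932 had several and were left out, and 9224, controls included, had none here. Symbols from the platform annotation were updated through the Entrez number (34741 probe sets). Values under log2 5.23 were raised to that floor, and a gene needed 1 of the 2 arrays above it. Each LIPUS array was set against the control array and the preceding one. The members and lists were chosen with earlier results of these data known. Named genes were all 9 members and, in each other list, genes past 1.5-fold and the highest and lowest ratios, and every other gene is marked as chosen after its values were seen or named as a nearest profile or marker. The calculation of ratios and calls was tested on simulated data. Alternatives covered the floor, the scaling, the probe set, the comparison array and the rule of size. Python 3.11.15, numpy 2.4.6, pandas 2.3.3, R 4.3.3 and limma 3.58.1 (normalization only) were used.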

Additional observations from a re-analysis of the deposited data

How the results depend on the processing

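Counts of genes that fell kept their values with the floor at the 25th or 75th percentile or absent, with median centring, quantile normalization and cyclic loess, and with probe sets lacking a cross-hybridisation suffix. In these settings 0.497% to 2.06% of all genes were lower at 0.5 h, 2.83% to 6.54% at 1 h and 2.48% to 3.6% at 3 h. The floor and suffix settings could not change the ratios of the 8 measured genes. All 8 lay above log2 8 on every array, and their brightest probe sets lack such a suffix. Unchanged counts in those settings are therefore no check on these genes. With the mean over probe sets, 1 gene instead of 2 was lower at 3 h, Tgfb1i1, since Skil was at −0.30. There 2.64% of all genes were lower at 3 h. When each array was set against the mean of the rest, 1 gene was lower at 1 h, Tgfb1i1 at −0.44, where 1.38% of all genes were. At 3 h 1 gene was lower, Skil at −0.42, where 1.18% of all genes were. Tgfb1 was then at −0.23 at 1 h and Tgfb1i1 at −0.21 at 3 h. With a 1.5-fold rule 1 gene was lower at 1 h and 0 at 3 h, where 0.331% and 0.181% of all genes were. With a 2-fold rule 0 were lower at either time, where 0.0% of all genes were. After median centring 1 gene was higher at 1 h, Tgfb2 at 0.33, where 6.26% of all genes were higher. The cause of these changes was not tested beyond the construction of each alternative. Of 216 single ratios under alternatives, 204 moved by less than 1 SD between probe sets and 12 by more, and no ratio past the rule changed sign. The 204 include ratios that could not move, so they overstate stability. These are the ratios under the floor and suffix settings, and those of genes with a single measured probe set under the mean over probe sets. Median centring shifted all ratios at a time by the same amount. No paired analysis was possible because each group has 1 array.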
